A study of Homo sapiens with 59 samples.

Results

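The subject is a class of promoters in the human lung large cell carcinoma line NCI-H661 that carry H3K4me3 and H2AK119ub but no H3K27me3, here called H3K4me3–H2AK119ub promoters. A promoter window reached 1500 bp to either side of the canonical start site (TSS) of a protein-coding gene in GENCODE release 44, 3001 bp in all. A window was a member when deposited peaks covered at least 300 bp of it in all 6 untreated H3K4me3 libraries and all 6 untreated H2AK119ub libraries, and less than 300 bp in each of 6 untreated H3K27me3 libraries. The rule took 5479 of 20007 windows (27.4%). They made up 39.7% of the 13807 active windows, where active means H3K4me3 in all 6 libraries and is not a measure of transcription. Among the 11298 active windows without H3K27me3 in any library they were 48.5%, and another 4600 (40.7%) had H2AK119ub in some but not all of the 6 libraries.

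The series holds ChIP-seq of histone marks, which counts DNA fragments pulled down with an antibody against a mark and compares them with input DNA. The 3 hairpin lines (shDPPA2, shDPPA4 and shDPPA2+4) expressed short hairpin RNAs against the embryonic factors DPPA2, DPPA4 or both from a doxycycline-inducible transgene, and were kept for 7 days with doxycycline at 2 µg/ml (DOX) or with water alone (H2O). They were sorted cell populations rather than single clones, and the shDPPA2+4 line was made from the shDPPA2 line. Parental cells were given DMSO or A-485 at 10 µM for 1 day, a compound that blocks acetylation by p300 and CBP. Each hairpin line and treatment had 2 libraries of H3K4me3 (replicates 1 and 2), H3K27me3 and H2AK119ub (both replicates 1 and 3). Each parental treatment had 2 libraries of H3K27ac (replicates 2 and 4) and H2AK119ub (replicates 3 and 4) and 3 of H3K27me3, and 1 DMSO library held SUZ12. A line with a control hairpin was not analysed here, so effects of DOX itself and of the hairpins cannot be told apart.

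H2AK119ub is a single ubiquitin placed on histone H2A by Polycomb repressive complex 1 (PRC1) and removed by the BAP1 deubiquitinase complex. H3K27me3 is written by Polycomb repressive complex 2 (PRC2), of which SUZ12 is a core subunit. The 2 marks are best known together at silent developmental genes, while H3K4me3 and H3K27ac mark the start sites of genes that are open for transcription. A promoter with H2AK119ub and H3K4me3 but without H3K27me3 carries the product of PRC1 beside marks of active genes.

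The promoters of 6 members are shown as sequence because later values turn on them. ZFP36, ZDHHC11B and PLEKHG2 had the highest densities of H2AK119ub reads in H2O cells, and ITGB8, GALNT17 and ADAMTS7 were among the 6 members with the most SUZ12 reads. Each line gives the 200 bases that end just before the RefSeq start site, 5′ to 3′ along the gene, on GRCh38.p14. Capitals mark the GC box (GGGCGG), the CCAAT box (CCAAT), an ETS site (CCGGAAG) or the NRF1 site core (GCATGCG), on either strand and with overlapping matches joined. The windows are chr19:39406647-39406846 (plus strand, ZFP36), chr5:784730-784929 (minus, ZDHHC11B), chr19:39412469-39412668 (plus, PLEKHG2), chr7:20330700-20330899 (plus, ITGB8), chr7:71131944-71132143 (plus, GALNT17) and chr15:78811465-78811664 (minus, ADAMTS7).
ZFP36: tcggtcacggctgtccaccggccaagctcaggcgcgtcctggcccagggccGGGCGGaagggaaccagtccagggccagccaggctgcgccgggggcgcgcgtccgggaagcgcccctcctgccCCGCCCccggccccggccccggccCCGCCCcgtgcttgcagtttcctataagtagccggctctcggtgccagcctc
ZDHHC11B: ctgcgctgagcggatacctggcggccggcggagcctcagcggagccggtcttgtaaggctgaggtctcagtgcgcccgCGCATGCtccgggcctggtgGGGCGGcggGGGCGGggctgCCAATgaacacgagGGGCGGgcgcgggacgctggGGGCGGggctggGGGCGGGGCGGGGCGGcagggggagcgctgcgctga
PLEKHG2: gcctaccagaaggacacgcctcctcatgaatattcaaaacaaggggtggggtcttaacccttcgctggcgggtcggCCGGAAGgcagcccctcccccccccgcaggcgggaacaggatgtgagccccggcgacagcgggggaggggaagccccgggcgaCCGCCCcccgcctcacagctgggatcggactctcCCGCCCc
ITGB8: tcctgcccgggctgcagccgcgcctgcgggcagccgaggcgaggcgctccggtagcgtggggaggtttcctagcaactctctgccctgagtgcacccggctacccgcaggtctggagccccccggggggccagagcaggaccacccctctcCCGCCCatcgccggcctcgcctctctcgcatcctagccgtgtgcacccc
GALNT17: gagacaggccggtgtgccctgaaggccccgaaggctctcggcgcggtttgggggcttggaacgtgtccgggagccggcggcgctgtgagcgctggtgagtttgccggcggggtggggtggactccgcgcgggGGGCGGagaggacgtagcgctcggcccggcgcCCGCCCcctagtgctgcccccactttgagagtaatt
ADAMTS7: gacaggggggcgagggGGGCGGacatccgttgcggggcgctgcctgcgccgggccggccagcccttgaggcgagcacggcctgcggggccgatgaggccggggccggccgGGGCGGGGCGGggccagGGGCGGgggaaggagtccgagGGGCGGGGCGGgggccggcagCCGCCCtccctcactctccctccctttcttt
All 6 stretches held the GC box, and their GC content ran from 70.0% in PLEKHG2 to 80.5% in ADAMTS7.

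In the H2O libraries, which chose the members, the marks are a description and carry no test. The median member had 1555 to 2601 bp of its window under H2AK119ub peaks in the 6 libraries and 2600 to 2687 bp under H3K4me3 peaks. For 5464 of the 5479 members no base lay under an H3K27me3 peak in any H2O library. Around the start site, H2AK119ub and H3K4me3 overlapped but differed in shape. H3K4me3 lay over the TSS itself at 98.5% of members, as a mean over libraries, and at 95.8% between 500 and 1000 bp downstream. H2AK119ub lay over the TSS at 57.2% and was most frequent 450 bp downstream, at 86.9%, with a second, lower shoulder upstream (60.4% between 500 and 1000 bp upstream against 83.2% at the same distance downstream). The 1232 promoters with all 3 marks in every library had the same shape of H2AK119ub with a shallower dip, 79.0% at the TSS and 90.4% at the highest point.

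**Figure D1:**
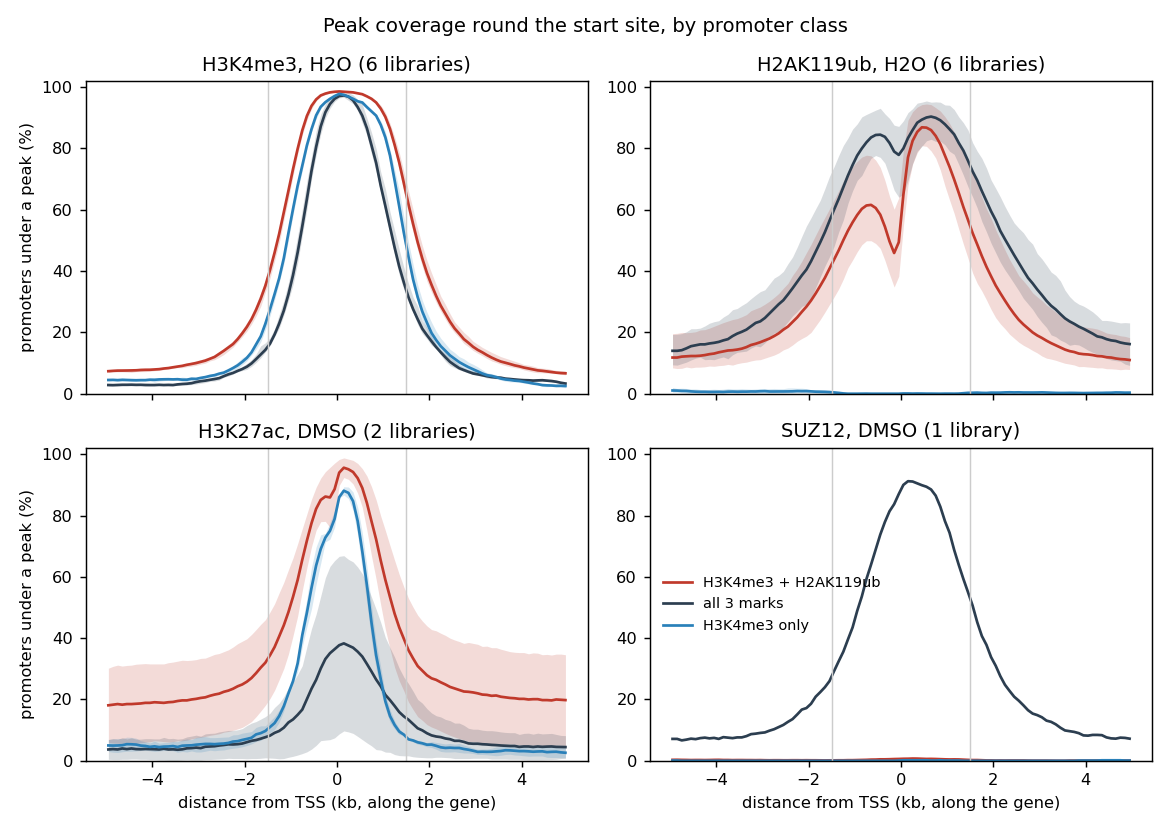
Share of promoters under a peak (%) against distance from the TSS along the gene (kb) for H3K4me3–H2AK119ub promoters (red), promoters with all 3 marks (dark) and active promoters free of H2AK119ub (blue). Lines are means over libraries, shading runs from the lowest to the highest library, and grey verticals bound the window. H3K4me3 is a single plateau over the TSS, H2AK119ub dips there (57.2% of red promoters against 86.9% at 450 bp downstream), and SUZ12 lies over at most 0.730% of red promoters at any position and up to 91.2% of dark ones.

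At the threshold the members shade into other promoters. The lowest of the 6 H2AK119ub values lay between 300 and 400 bp at 139 members, 101 of them at exactly 300 bp, which is 3 bins of the deposited grid, and 47 windows that met every other criterion stopped between 200 and 300 bp. ABHD17B, ACOT8 and ACTR8 were members with a lowest value of 300 bp, and ARID5B (299 bp), TPGS1 (297 bp) and ENSG00000268614 (295 bp) were not. For H3K4me3 the margins were HBA2 at 300 bp, C16orf92 at 303 and ANTXRL at 304 bp inside, and APOF at 244, TNS2 at 236 and LCN12 at 228 bp outside. For H3K27me3 members near the limit were TIGD4 (271 bp in its highest library) and BBX (262 bp), while FYN, INSYN1 and KIAA0513 reached 300 bp and were left out.

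Cell identity was read from H3K4me3 alone. VIM, the intermediate filament of mesenchymal cells, had 3001 bp in every H2O library and KRT18, a simple epithelial keratin, had 1900 to 2418 bp, and both were members. The canonical window of KRT8 had none. NKX2-1, a lung lineage factor, had 3001 bp of all 3 marks, whereas the adenocarcinoma markers NAPSA and SFTPB, the squamous markers TP63 and KRT5, and the blood and endothelial markers PTPRC, CD3E, PECAM1 and CDH5 had no H3K4me3. DPPA2 and DPPA4, the targets of the hairpins, had H3K4me3 over all 3001 bp in every H2O library. Neither was a member, since H2AK119ub reached 0 to 1100 bp at DPPA2 and 0 to 855 bp at DPPA4. Their RNA was not measured in these libraries, so the extent of the knockdown was not checked.

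The libraries held 25597 to 107509 peaks for H2AK119ub, 27156 to 135072 for H3K27ac, 33511 to 198580 for H3K27me3 and 30994 to 33108 for H3K4me3. Libraries of 3 kinds stood apart. The DMSO H3K27ac library of replicate 4 had 135072 peaks and 6502796 reads in peaks against at most 35380 peaks in the other 3 libraries of that mark, and both replicate 4 libraries had been compared with the input of the other treatment. The 3 DOX H2AK119ub libraries of replicate 3 had 92642 to 107509 peaks against 52030 to 69371 in the other hairpin-line libraries of that mark. The DMSO H3K27me3 library of replicate 4 had 33511 peaks and 590598 reads in peaks, against 79477 peaks in the next lowest library of that mark. Across the 3 DMSO libraries H3K27me3 was at 41.5%, 93.3% and 94.5% of promoters with all 3 marks, in rising order. A peak present in one library and missing in another is a call made at that library's depth. Each replicate was a complete batch of all conditions, and p-values describe only how these libraries vary. The permutation tests treat libraries as independent, though they share lines and replicate batches.

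H2AK119ub at H3K4me3–H2AK119ub promoters was next read in the 10 libraries that the rule had not used. On DOX, H2AK119ub peaks remained at 84.1% ± 17.7 of members (SD, n = 6 libraries) and at 98.3% ± 1.48 of promoters with all 3 marks. The difference, −14.3 percentage points ± 17.7, ranged from −41.1 to 1.14 and did not pass an exact two-sided sign-flip permutation test (p = 0.219, smallest possible 0.0312). With peaks of a log2 fold over input above 1 only, the filter that the study applied, both classes were chosen anew (4411 members). The difference was then −16.0 points and passed (p = 0.0312, the same exact permutation test). The 2 replicates differed. In replicate 1, 99.3% of members kept the mark in shDPPA2, 97.1% in shDPPA4 and 99.1% in shDPPA2+4, close to the 98.0% mean of promoters with all 3 marks. In replicate 3 the shares were 56.3%, 71.4% and 81.2%, and the difference from promoters with all 3 marks was −41.1 to −18.2 points in the 3 lines, with a mean of −29.1. The replicate 3 libraries are the ones with the most peaks, and the part of that in the result was not tested.

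Members were also ordered by mean H2O coverage and divided into 4 groups of equal size. The order uses the values that chose the members, and the narrowest group lies nearest the limit of 300 bp, so the shares are a description. In DOX replicate 1 the narrowest group had the mark at 97.6% of its promoters in shDPPA2, 92.2% in shDPPA4 and 97.0% in shDPPA2+4, and the widest at 99.9% to 100%. Peaks remained in the DOX replicate 3 libraries at 23.0% of the narrowest group in shDPPA2, 41.3% in shDPPA4 and 57.1% in shDPPA2+4. For the widest group the shares were 89.7%, 95.8% and 98.0%, beside 97.4%, 99.3% and 99.4% of promoters with all 3 marks. Promoters with all 3 marks also had wider H2AK119ub in H2O (library medians of 2328 to 2865 bp), so class and width cannot be told apart in these comparisons.

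Across single promoters, 2720 members (49.6%) were marked in all 6 DOX libraries and none was unmarked in all 6. In the 3 DOX libraries of replicate 1, 5243 members (95.7%) were marked in each, and in the 3 of replicate 3, 2740 (50.0%) were marked in each and 709 (12.9%) in none. BAZ1A, which encodes the ACF1 subunit of ISWI chromatin remodellers, had 3001 bp under H2AK119ub peaks in all 6 H2O libraries and in the 3 DOX libraries of replicate 1. In the 3 DOX libraries of replicate 3 it had 0 bp, and its input DNA was 4.79 to 5.86 times as dense as at the median member. The AP-1 subunit gene JUNB had 2215 to 2986 bp in H2O. On DOX it had 2301 to 2801 bp in replicate 1, and 0, 1000 and 1486 bp in replicate 3 of shDPPA2, shDPPA4 and shDPPA2+4. ZFP36, which encodes an RNA-binding protein that promotes decay of short-lived mRNAs, had 3001 bp in all 6 H2O libraries and 2801 to 3001 bp in all 6 DOX libraries, so its ranges met.

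In parental cells the mark was at fewer members than in H2O, where the rule had set it at all of them. Over all windows the share was also lower, 21.3% to 39.4% in DMSO and 23.7% to 33.2% after A-485, against 50.0% to 63.6% in H2O. Reads in peaks of this mark were 566116 to 2346299 in parental libraries and 1437155 to 3576312 in H2O libraries. The part of depth and of the choice of members was not tested. H2AK119ub covered at least 300 bp at 67.8% of members in DMSO replicate 3 and 40.6% in DMSO replicate 4, and at 54.7% and 42.5% in the A-485 libraries of the same replicates. The replicate 3 values were the higher ones in both treatments. The mean was 51.4% ± 12.6 (SD, n = 4 libraries), against 0.820% ± 0.478 of the 1219 active promoters that had neither H2AK119ub nor H3K27me3 in any H2O library. Members were higher in 4 of 4 libraries, by 39.3 to 67.4 points (p = 0.125, exact two-sided sign-flip permutation test, the smallest that 4 libraries allow). Both classes had been chosen by this mark in lines made from these cells, so the direction was set beforehand. The comparison only checks the label. Promoters with all 3 marks had 98.8% and 69.2% in DMSO and 96.8% and 75.9% in A-485. In all, 1105 members (20.2%) were marked in all 4 parental libraries and 998 (18.2%) in none. TEAD4, a transcription factor of the Hippo pathway, and MCM7, a subunit of the replicative helicase, were at 0 bp in all 4, while their H2O ranges were 1797 to 2697 and 1000 to 3001 bp.

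**Figure D2:**
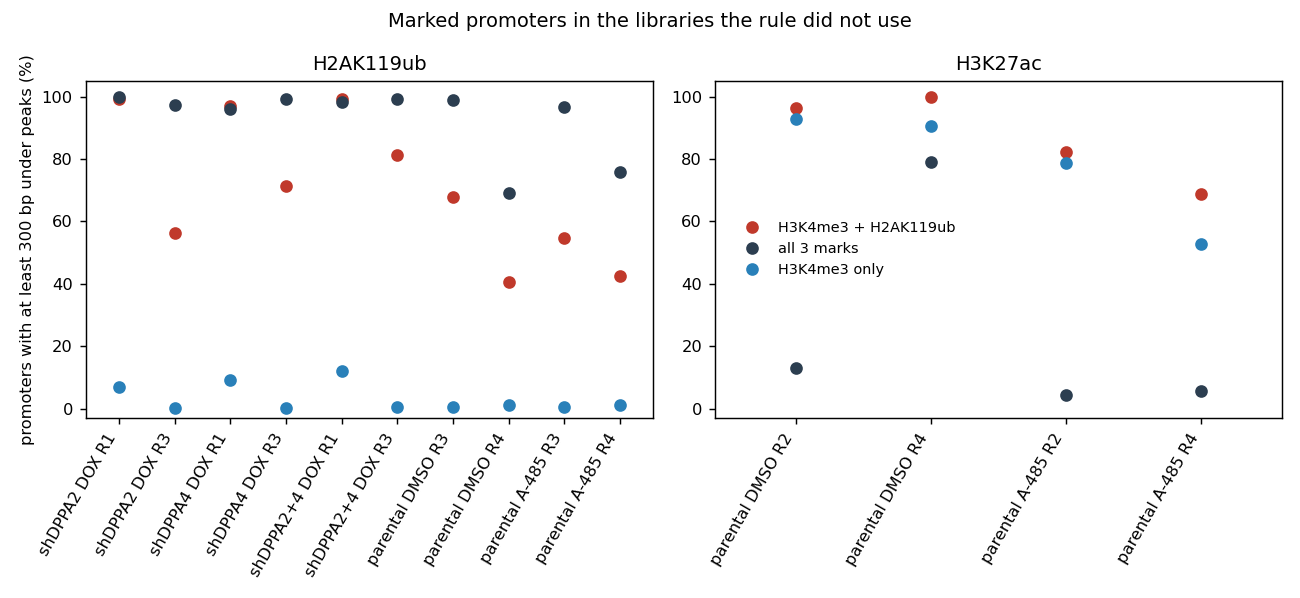
Share of promoters with at least 300 bp under peaks (%) in each library outside the rule, for H2AK119ub (left) and H3K27ac (right), where R is the replicate number and each point is 1 library and class. H3K4me3–H2AK119ub promoters (red) lie beside promoters with all 3 marks (dark) in DOX replicate 1 and below them in replicate 3 and in parental cells. For H3K27ac they lie above H3K4me3-only promoters (blue) in all 4 libraries, from 96.2% against 92.9% in DMSO replicate 2 to 68.7% against 52.7% in A-485 replicate 4.

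A core of 965 members (17.6%) was marked in all 10 libraries outside the rule, compared with 706 (57.3%) of promoters with all 3 marks and 0 of 1219 active promoters free of H2AK119ub. It held 1.10% of the group of members with the narrowest H2O coverage and 48.1% of the widest. ZFP36, PLEKHG2, DLL3 and LPCAT1 were in this core. So were the PRC1 gene CBX2, the cyclin gene CCNE1 and the de novo DNA methyltransferase gene DNMT3A. CCNE1, whose product activates CDK2 at the entry to S phase, had 2801 to 3001 bp in H2O, 1591 to 3001 bp on DOX and 1491 to 2291 bp in the 4 parental libraries. For the core the median GC content of the window was 62.2%, and for the 998 members unmarked in parental cells it was 54.4%.

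The 8 members with the most H2AK119ub reads per kb of peak in H2O were ZFP36, ZDHHC11B, PLEKHG2, DLL3, LPCAT1, BAZ1A, NBPF1 and TPPP. ZFP36 had 75.0 to 139 reads per kb with a median of 100 over 6 libraries, and ZDHHC11B, a palmitoyltransferase gene, had 72.6 to 104 with a median of 86.5. Library medians over all members were 29.3 to 44.5 reads per kb. Of the 8, 3 lie near each other on chromosome 19, where the windows of ZFP36, PLEKHG2 (a guanine nucleotide exchange factor) and DLL3 (an inhibitory Notch ligand) fall between 39405347 and 39500447. On chromosome 5 the windows of TPPP (a tubulin-binding protein), ZDHHC11B and LPCAT1 (a lysophospholipid acyltransferase) fall between 691852 and 1525460. Input DNA was also dense at several of them. Input reads per kb were 2.81 to 3.42 times the median of members at ZFP36, 4.79 to 5.86 times at BAZ1A and 2.86 to 3.59 times at NBPF1, and 0.738 to 1.46 times at TPPP. The part of that in the ranking was not tested.

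Measured as enrichment over input, the order changed. BAZ1A had a log2 fold over input of 0.411 to 1.06, ZFP36 had 1.56 to 2.01 and ZDHHC11B had 2.35 to 3.45. Their mean ranks among the members over the H2O libraries were 5268, 3334 and 728. A ranking by log2 fold was chosen after these values were seen and kept to the 659 members with at least 10 input reads at the peak in every H2O library. It was led by SBK1, LRRC45, EFNA2, GNB2, RAC3, PUSL1, SAMD11 and ZDHHC11B. EFNA2, an ephrin ligand gene, had a median log2 fold of 2.98 in H2O and values of 1.89 to 3.26 on DOX, and the RAC3 GTPase gene had 2.86 and 1.89 to 2.97. Each of these 8 was marked in all 6 DOX libraries, and their windows had a GC content of 61.5% to 72.5%.

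H3K27ac, which the rule did not use, covered nearly all members. In DMSO replicate 2 it reached at least 300 bp at 96.2% of members and 92.9% of H3K4me3-only promoters, and in replicate 4 at 99.9% and 90.5%. Promoters with all 3 marks had 13.1% and 79.0%. After A-485 the members had 82.2% in replicate 2 and 68.7% in replicate 4, and H3K4me3-only promoters had 78.8% and 52.7%. The median member had 1800, 2500, 900 and 800 bp under H3K27ac peaks in DMSO replicates 2 and 4 and A-485 replicates 2 and 4. The corresponding medians of H3K4me3-only promoters were 1500, 1300, 600 and 400 bp. Members were wider in 4 of 4 libraries, by 550 bp ± 436 on average (SD, range 300 to 1200), with p = 0.125 in the exact two-sided sign-flip permutation test, the smallest that 4 libraries allow. Within replicate 2 the difference was 300 bp in both treatments, and within replicate 4, which holds the DMSO library that stood apart, it was 1200 bp in DMSO and 400 bp after A-485.

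Of the 5269 members with H3K27ac in both DMSO libraries, 3532 (67.0%) kept a peak in both A-485 libraries and 553 (10.5%) had one in neither. Those shares were 56.7% and 11.1% of 1080 H3K4me3-only promoters, and 64.6% and 11.6% of 11571 active promoters. CDKN1C, a cyclin-dependent kinase inhibitor gene, had 1426 and 3001 bp in DMSO and 0 bp in both A-485 libraries. KLF2, a zinc finger factor of the immediate early response, had 2326 and 2526 bp in DMSO and 400 and 500 bp after A-485. HOXC8 had 2801 and 3001 bp before and 2885 and 2701 bp after, and KMT2B, a H3K4 methyltransferase gene, 2701 and 3001 bp before and 2498 and 2698 bp after. For these genes the 2 treatments overlapped at HOXC8 only.

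In reads, the size of the H3K27ac change depended on the scaling. An edgeR quasi-likelihood test with TMM scaling and the replicate as a block, over merged regions with a peak in every library, called, at an adjusted p under 0.05 and a log2 change of at least 0.5 in size, 2 of 9551 regions (0.0209%). None of the 3159 regions at members (3641 of the 5479 promoters) was among them. A region that lost its peak in an A-485 library could not be tested, so the strongest losses may be missing from this fit. At an unadjusted p under 0.05 there were 161 lower and 3 higher regions at members, beside 809 of all 9551 regions in either direction. DESeq2 called 0 regions at members. The median log2 change was −0.19 at members, 0.12 at H3K4me3-only promoters and 0.00 over all regions. Scaling by library totals instead moved the median of all regions to −1.44 and called 7323 regions lower (76.7%), of which 3003 lay at members, and the members' median was −1.63. Relative to all regions, members were −0.04 in replicate 2 and −0.33 in replicate 4, and H3K4me3-only promoters 0.03 and 0.21. Without the DMSO library of replicate 4 the TMM medians were −0.05 and −0.08. Mouse spike-in chromatin, added by the study, was not used here, so the global level of H3K27ac cannot be given.

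The members with the lowest values were not called, and those named here and in the fits that follow were chosen after their values were seen. The region shared by CENPX and LRRC45, a centromere protein gene and a centrosomal linker gene, had a log2 change of −2.20 ± 0.45 (SE, edgeR adjusted p = 0.275). ATP2A1, the calcium pump of skeletal muscle, had −2.27 ± 0.47 (edgeR adjusted p = 0.275). At the other end stood BAZ2B with 0.91 ± 0.37 and BAZ1A with 0.85 ± 0.37 (edgeR adjusted p = 0.556 and 0.585).

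After A-485 no H2AK119ub region at members was called, and H3K27me3 reads could not be tested at any member. For H2AK119ub, edgeR and DESeq2 called 0 of 5926 regions (0%). The 990 regions at members (1086 of the 5479 promoters) had a median log2 change of −0.05, with 7 higher and 22 lower at an unadjusted p under 0.05. Over all 5926 regions, 208 lay under that p in either direction. EID2, which encodes an inhibitor of p300-type acetyltransferases, had −2.13 ± 0.47 (edgeR adjusted p = 0.913). For H3K27me3, 0 of 9775 regions were called (0%). No tested region lay at a member, as members had been chosen without this mark, so no call there was possible. At least 300 bp of H3K27me3 covered 0.243% ± 0.0279 of members in DMSO and 0.341% ± 0.362 in A-485 (SD, n = 3 libraries each). The DMSO libraries include replicate 4, which had the fewest peaks of this mark. The difference of 0.0973 points gave p = 1.00 in an exact two-sided permutation test that cannot go below 0.100.

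H3K27me3 stayed rare at members in the libraries that the rule had not used. On DOX it reached 0.262% ± 0.268 of members and 0.150% ± 0.109 of H3K4me3-only promoters (SD, n = 6 libraries), a difference of 0.111 points ± 0.257 that was positive in 3 of 6 libraries (p = 0.375, exact two-sided sign-flip permutation test, smallest possible 0.0312). In replicate 1 the difference was 0.155 to 0.429 points and in replicate 3 −0.210 to −0.0273. With 1000 bp as the limit for every mark the classes were chosen anew (3573 members), and H3K27me3 under 1000 bp in H2O was allowed. The difference between those classes was 0.461 points (p = 0.0312, the same exact permutation test). The parental libraries include DMSO replicate 4, which had the fewest peaks of this mark. In parental cells the shares were 0.292% ± 0.236 and 0.123% ± 0.113, a difference of 0.169 ± 0.266, positive in 4 of 6 libraries (p = 0.125, the same exact permutation test, smallest possible 0.0312). Within replicates 2, 3 and 4 it was 0.0231, 0.0138 and 0.470 points, and it was 0.0184 without replicate 4 and 0.0695 without the A-485 library of replicate 4 alone. With peaks of log2 fold above 1, and the classes chosen anew with them, it was 0.103 (p = 0.0312, exact permutation test). Of the 5479 members, 5417 had the mark in no DOX library and 5406 in no parental library, and none had it in all libraries of either set.

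SUZ12 was measured in 1 DMSO library, without a replicate, and which of 2 peak callers made its list is uncertain. Its peaks covered at least 300 bp at 67 members, 1.22% (95% exact binomial interval 0.949 to 1.55, counting error only), and at 0.246% (0.0508 to 0.718) of H3K4me3-only promoters and 96.4% (95.2 to 97.4) of promoters with all 3 marks. The 6 members with the most SUZ12 reads per kb were ITGB8 (22.3), C2orf88 (21.4), GALNT17 (19.4), WDR86 (18.8), ADAMTS7 (18.3) and CDH6 (18.3), beside a median of 23.3 over promoters with all 3 marks.

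These 6 differed in H3K27me3 outside the H2O libraries. GALNT17, which encodes an enzyme of the family that starts O-linked glycosylation, had 0 bp of H3K27me3 in all 6 H2O libraries, where the rule asked for less than 300 bp. In parental DMSO libraries it had 2244, 1744 and 0 bp, after A-485 1044, 0 and 0 bp, and on DOX 1344 bp in shDPPA4 and 1700 bp in shDPPA2+4 of replicate 3 and 0 bp elsewhere. ITGB8, an integrin subunit that activates latent TGF-β, had up to 1100 bp on DOX and up to 800 bp in parental cells, with a median of 0 in each treatment. ADAMTS7, a secreted metalloproteinase gene, had 0 bp in every library. H3K27ac at GALNT17 covered 2957 and 2444 bp in DMSO and 0 and 900 bp after A-485, and C2orf88 went from 1700 and 1738 bp to 0 bp in both, whereas CDH6, a cadherin gene, had 3001 and 2886 bp before and 3001 and 2686 bp after.

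H3K4me3 was wider at members than at H3K4me3-only promoters on DOX, in libraries that the rule had not used. The median member had 2683, 2745 and 2651 bp in replicate 1 of shDPPA2, shDPPA4 and shDPPA2+4 and 2807, 2700 and 2726 bp in replicate 2. The mean of the 6 library medians was 2719 bp ± 54.3 for members and 2461 bp ± 66.3 for H3K4me3-only promoters. Members were wider by 258 bp ± 24.9 (SD, range 236 to 295), in 6 of 6 libraries (p = 0.0312, exact two-sided sign-flip permutation test, the smallest that 6 libraries allow). Both classes had been chosen by the same H3K4me3 criterion. In the H2O libraries that chose them the medians already differed, at 2600 to 2687 bp for members and 2400 to 2440 bp for H3K4me3-only promoters. Members also had the higher GC content and were the class with wider H3K27ac, and the part of either in this width was not tested.

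The contrast of DOX with H2O contains the libraries that chose the members, so counts from it are given without a reading. For H2AK119ub, edgeR called 50 of 8333 regions (0.600%), all higher, and 1 of the 2589 regions at members (3041 promoters). That region was at EXOC3, which encodes a subunit of the exocyst, with a log2 change of 0.71 ± 0.13 (edgeR adjusted p = 0.0474). The median log2 change was −0.27 at members, 0.07 at promoters with all 3 marks and −0.01 over all regions. At an unadjusted p under 0.05, 49 regions at members were higher and 547 lower, beside 2038 of all 8333 regions in either direction. DESeq2 called 571 regions higher and 198 lower, of which 10 and 123 lay at members. A region that lost its peak in any of these libraries could not be tested. For H3K4me3, edgeR called 101 of 22973 regions (0.440%) and 0 of the 4824 at members (5474 promoters). At an unadjusted p under 0.05, 966 regions at members were higher and 444 lower, beside 6045 of all 22973 regions in either direction. At members DESeq2 also made 0 calls, and the median was 0.02.

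The share of active promoters without H3K27me3 that were members was higher in bins of higher GC content. In 5 bins of GC content the share was 7.75%, 25.2%, 46.9%, 72.4% and 90.0%, from windows of 29.1% to 48.6% GC up to windows of 60.1% to 77.8%. H3K4me3-only promoters ran the other way, from 34.6% to 0.618%. The same order was seen in each of the 10 H2AK119ub libraries outside the rule. In DOX replicate 1 of shDPPA2 the mark was at 38.0% of promoters in the lowest bin and 98.0% in the highest, in DOX replicate 3 of the same line at 2.09% and 73.6%, and in DMSO replicate 4, the library with the fewest peaks, at 6.72% and 46.7%. H3K27ac in DMSO replicate 2 was nearly level, 95.3% in both outer bins. Input reads per kb of H3K4me3 peak fell from 1.07 to 0.864 times their overall median between the outer bins in shDPPA2 H2O replicate 1, and the part of base composition in peak calling was not tested.

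**Figure D3:**
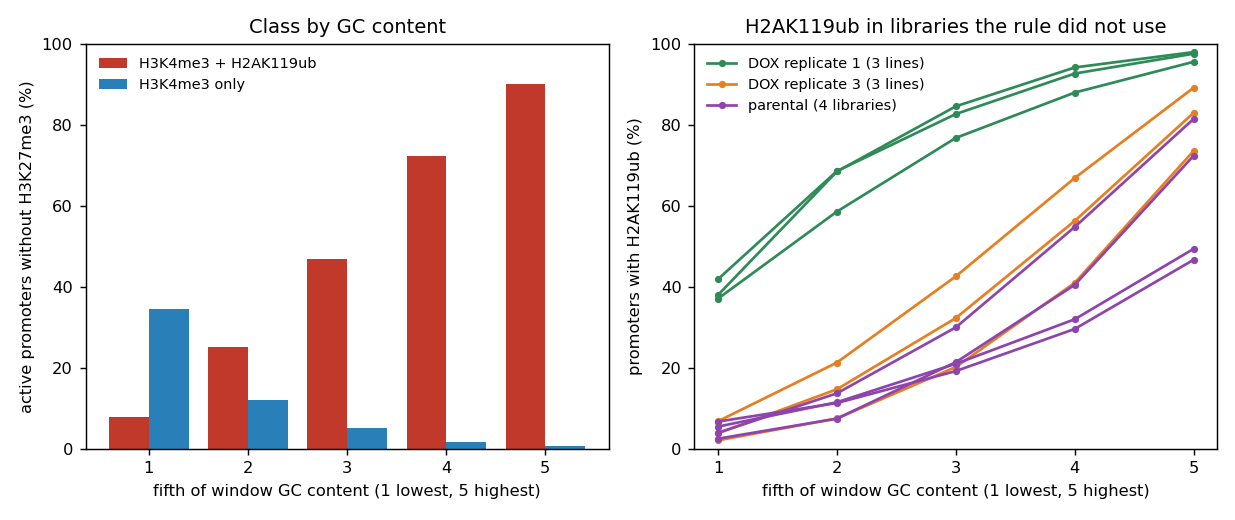
Left, share of active promoters without H3K27me3 (%) that were H3K4me3–H2AK119ub promoters (red) or H3K4me3-only promoters (blue) in 5 bins of window GC content. Right, share of the same promoters (%) with H2AK119ub in each of the 10 libraries outside the rule, 1 line per library. The red bars rise from 7.75% to 90.0%, and all 10 lines rise from the lowest to the highest bin.

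The median GC content was 58.2% for members, 57.3% for promoters with all 3 marks, 47.2% for H3K4me3-only promoters and 54.4% for all active promoters. The ratio of observed to expected CpG separated the classes less, with medians of 0.643, 0.691 and 0.578 for the first 3. Members and promoters with all 3 marks, alike in base composition, differed in the length of the gene, with canonical transcripts spanning a median of 23646 bp against 72905 bp. A divergent protein-coding start lay within 1000 bp at 12.3% of members, 1.38% of promoters with all 3 marks and 18.9% of H3K4me3-only promoters. Windows of 22.6% of members overlapped that of another gene, so some members share peaks. By chromosome, members were 65.0% of active promoters without H3K27me3 on chromosome 17, 62.1% on chromosome 20 and 61.9% on chromosome 16, against 22.1% on the X chromosome.

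RefSeq promoter sequence (250 bases before to 50 after the start) was matched for 4249 members and for 15345 of all 20007 promoters. The GC box seen in the printed stretches was in 80.3% of members, 68.9% of promoters with all 3 marks, 57.8% of H3K4me3-only promoters and 59.2% of all promoters. The ETS site was in 13.7% of members, 35.1% of H3K4me3-only promoters, 3.41% of promoters with all 3 marks and 14.4% of all. The YY1 site core (ATGGCGG) was in 8.12%, 14.0%, 2.45% and 7.75% of the same 4 sets, and the CCAAT box in 34.8%, 43.8%, 30.7% and 36.6%. The TATA box (TATAAA) was in 4.31% of members and 9.63% of all promoters. Both strands were searched, the GC box itself adds to GC content, and a match says only that the letters are present.

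The members were then read by gene family, as the number of members among the active promoters of each list beside the 39.7% of all active promoters. Members were 22 of 31 active immediate early genes (71.0%), which are switched on within minutes of growth factor signals, and the widest H2AK119ub was at BTG2, KLF10, KLF2 and JUNB. BTG2, an antiproliferative cofactor, had 2501 to 3001 bp in H2O, 2101 to 3001 bp on DOX and 1019 to 1819 bp in the 4 parental libraries, above 0 in all of them. In the Notch pathway, in which ligands on one cell activate receptors on the next, 20 of 30 (66.7%) were members, led by the ligand DLL3, the Notch inhibitor homologue NUMBL, the receptor glycosyltransferase LFNG and the target factor HES7. Each of these 4 was marked in all 16 H2AK119ub libraries. For the Hippo pathway it was 13 of 21 (61.9%, led by AMOTL2, TEAD3, WWTR1 and TEAD4), for TGF-beta and BMP signalling 18 of 34 (52.9%, led by BMP7, TGFB1, SMAD3 and BMPR2) and for Wnt signalling 21 of 54 (38.9%, led by WNT9A, LRP5, WNT10B and FZD7), where another 15 carried all 3 marks.

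The genes of the complexes that write and remove these marks were counted in the same way. PRC1 had 17 of 27 (63.0%), with BCORL1, PCGF2 and CBX2 among the widest. BCORL1, a corepressor of the BCOR family, had 2801 to 3001 bp of H2AK119ub in H2O and 766 to 2166 bp in the 4 parental libraries. PRC2 had 6 of 12 (50.0%), led by EPOP, PHF19 and the 2 catalytic subunit genes EZH2 and EZH1. EZH2 had 2000 to 3001 bp in H2O, 0 to 3001 bp on DOX with a median of 2050, and 0 to 1200 bp in parental cells. Of the genes for removal of H2AK119ub, 4 of 9 (44.4%) were members, namely FOXK1, FOXK2, ASXL1 and BAP1. BAP1, the deubiquitinase itself, had a narrow 708 to 1108 bp in H2O.

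Other chromatin lists gave 11 of 17 histone deacetylase and corepressor genes (64.7%, among them MTA2, RCOR1 and MTA1) and 8 of 13 of the DNA methylation machinery (61.5%, led by DNMT3A, TET3, DNMT3B and UHRF1). H3K4 methyltransferase complexes had 10 of 18 (55.6%, led by KMT2B, KMT2A, SETD1B and KMT2D). Acetyltransferases and acetyl-lysine readers had 10 of 19 (52.6%, led by BRD9, CREBBP, BRPF3 and BRD1). CREBBP, which encodes CBP, a target of A-485, had 1900 to 2801 bp of H2AK119ub in H2O and 900 to 2913 bp on DOX. Its H3K27ac covered 2100 and 2800 bp in DMSO and 1500 and 1700 bp after A-485. DNMT3A had 2701 to 3001 bp of H2AK119ub in H2O and 2301 to 3001 bp on DOX. In parental cells it had 3001 bp in DMSO and 2701 bp after A-485 in replicate 3, and 800 bp in both treatments in replicate 4, so the replicates differed and the treatments less.

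Members were 17 of 28 genes for G1 and S phase cyclins and kinases (60.7%), led by CCNE1, CDKN1A, CDKN1C and CCNE2. CDKN1A, the p21 inhibitor, had 2387 to 3001 bp in H2O and 600 to 3001 bp on DOX. Among developmental genes the class with all 3 marks took a larger part. The HOX genes had 16 of 33 members (48.5%, led by HOXC8, HOXB7, HOXC9 and HOXA10) and 6 with all 3 marks. Of the other developmental transcription factors 30 of 103 (29.1%) were members and 34 had all 3 marks. SOX18, an endothelial factor, TFAP2C, SNAI1, a factor of epithelial-mesenchymal transition, and LMX1B were the widest members. SOX18 had 3001 bp of H2AK119ub in every H2O and DOX library and 2262 to 3001 bp in parental cells.

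Lists of housekeeping machinery gave lower shares. Members were 14 of 78 cytosolic ribosome genes (17.9%, led by RPS16, RPL10A, RPL13 and RPL28), 14 of 77 mitochondrial ribosome genes (18.2%) and 6 of 32 proteasome genes (18.8%, led by PSMA7, PSMD8, ADRM1 and PSMC4). They were 2 of 20 aminoacyl-tRNA synthetase genes (10.0%, VARS1 and YARS1) and 3 of 37 genes of respiratory chain complex I (8.11%, NDUFB10, NDUFB2 and NDUFV1). RPS16, whose window lies in the same stretch of chromosome 19 as ZFP36 and DLL3, had 1149 to 3001 bp of H2AK119ub in H2O and 0 to 3001 bp on DOX. YARS1 had 900 to 1100 bp in H2O and 0 bp in all 4 parental libraries. Spliceosome genes had 12 of 41 (29.3%), RNA polymerase II and Mediator 11 of 43 (25.6%) and DNA replication 15 of 41 (36.6%), among them CDT1, which licenses origins. Of 443 active zinc finger (ZNF) genes 109 (24.6%) were members, and of 220 active solute carrier genes 113 (51.4%). The other lists gave 11 of 21 circadian clock genes (52.4%), 13 of 24 Kelch-like (54.2%), 20 of 41 TRIM (48.8%), 14 of 33 autophagy (42.4%) and 12 of 30 cullin ligase genes. Lists with few active promoters gave 1 of 7 early embryo and germline genes, 1 of 3 silent tissue genes and 1 of 3 olfactory receptors, and no keratin-associated protein gene was active.

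Lists with high shares differed in base composition. The median GC content of active promoters was 60.9% for immediate early genes, 59.5% for the Notch pathway and 59.1% for PRC1, but 53.9% for G1 and S phase genes and for PRC2. It was 51.1% for the cytosolic ribosome, 50.7% for aminoacyl-tRNA synthetases and 51.3% for complex I, beside 54.4% over all active promoters. Developmental transcription factors had 60.2% and Wnt signalling genes 59.9%, with shares below that of all active promoters. The part of GC content in these shares was not tested.

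**Figure D4:**
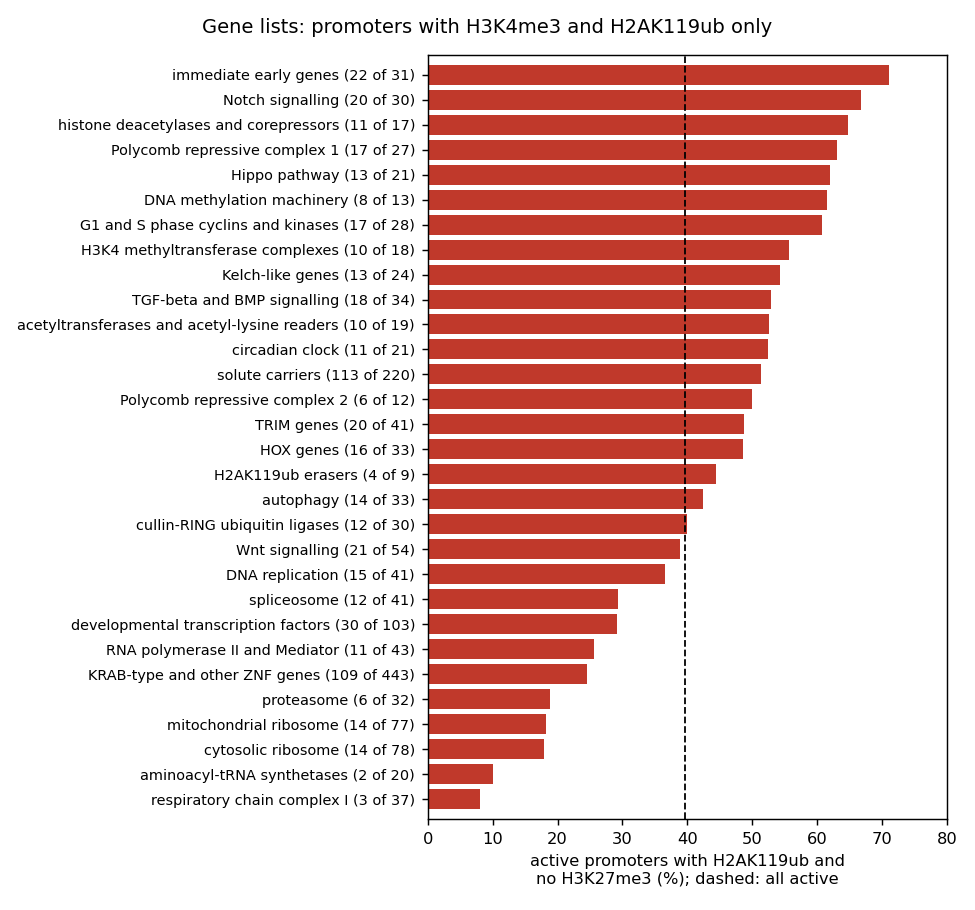
Share of the active promoters of each gene list (%) that were H3K4me3–H2AK119ub promoters, with the number of members and of active promoters in brackets. The dashed line is the 39.7% of all active promoters. Immediate early and Notch genes lie highest (71.0% and 66.7%) and aminoacyl-tRNA synthetases and complex I lowest (10.0% and 8.11%).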

How the data were processed

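ChIP-seq peak lists of 51 libraries from NCI-H661 cells were used. Per the submitters' processing notes, reads were handled with Trim Galore 0.6.6, BWA 0.7.13, SAMtools 1.9, Picard 2.6.0 and deepTools 3.5.0; the study names EPIC2 with 100 bp bins on hg38 for histone marks and MACS2 for SUZ12. For each peak the authors deposited ChIP and input counts, the log2 fold over input and a p-value, and a score that was not used. The SUZ12 list has the columns of the EPIC2 lists, so its caller is uncertain.

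Peaks were intersected with promoter windows, and a promoter was marked at 300 bp or more. Class shares were compared over libraries with exact permutation tests. ChIP counts of peaks were summed over merged regions and tested with edgeR 4.0.16 (R 4.3.3; quasi-likelihood, TMM, Benjamini-Hochberg), with DESeq2 1.42.0 as an alternative; scripts used Python 3.11.15. The replicate number entered as a block: deviations of same-numbered libraries correlated at 0.235 to 0.745 in every pair, and the study made replicates in complete batches. Only peak lists were used here, so regions were limited to those with a peak in every library, and reads outside peaks are not counted. The scripts were tested on simulated data.

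Reads in peaks were 566116 to 5379670 per H2AK119ub library, 780024 to 6502796 for H3K27ac, 590598 to 12610644 for H3K27me3, 8428795 to 19452145 for H3K4me3 and 535325 for SUZ12. Intervals cover counting error only. Named genes are the 8 members with most H2AK119ub reads per kb in H2O, the 6 with most SUZ12 reads per kb, the promoters nearest each threshold, DPPA2, DPPA4 and up to 4 of the widest members of each gene list; no member met the rules for the largest called H3K27ac changes, for losing H2AK119ub in all DOX libraries or for H3K27me3 in a whole set. Other named genes were chosen after their values were seen. Members and lists were chosen with earlier results of these data known. Inputs without peak lists, the spike-in and the control hairpin were not used here. Some genes that these rules name are not reported here.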

Additional observations from a re-analysis of the deposited data

How the results depend on the processing

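Asking for 1000 bp in place of 300 bp gave 3573 members. Each change of this limit or of the peak filter chose the classes anew, so the classes compared are not the main ones. The difference in H2AK119ub kept on DOX became −16.0 points (p = 0.0312, exact permutation test) with peaks of log2 fold above 1, and ranged from −29.1 to 0.481 when libraries or replicates were left out, turning to 0.481 without replicate 3. H3K27me3 on DOX became 0.461 points at 1000 bp (p = 0.0312, exact permutation test), and ranged from −0.100 to 0.323, turning to −0.100 without replicate 1. H3K27me3 in parental cells became 0.103 with log2 fold above 1 (p = 0.0312, exact permutation test), with a leave-out range of 0.0184 to 0.247. The A-485 against DMSO difference in H3K27me3 ranged from −0.106 to 0.240, turning to −0.106 without A-485 replicate 4 and −0.0913 without replicate 4. Leave-out ranges were 251 to 262 bp for H3K4me3 width, where fewer libraries cannot reach the threshold, 300 to 800 bp for H3K27ac width and 40.3 to 60.9 points for H2AK119ub in parental cells. SUZ12 covered 1.68% of members with log2 fold above 1 and 1.96% at 1000 bp.

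Counts of called regions depended on the setting. For H3K27ac, DESeq2 called 49, no replicate block 0, log2 fold above 1 0, library totals 7333 (3003 at members), promoter windows 19 (8 at members), and leaving out 1 library 0 to 51. For H2AK119ub with A-485, windows gave 1 and leaving out 1 library 0 to 16, and for H3K27me3 0 to 11. For H2AK119ub on DOX, DESeq2 called 769 (133 at members), no replicate block 0, log2 fold above 1 0, totals 58 (24 at members), windows 0, and leaving out 1 library 0 to 529 (0 to 106 at members, most without shDPPA4 DOX replicate 1). For H3K4me3, DESeq2 called 20, no replicate block 0, totals 334 (7 at members), windows 2, and leaving out 1 library 38 to 325 (most without shDPPA2+4 DOX replicate 1). Fits of 4 libraries with 1 left out had no block, since none could be fitted. The cause of these differences was not tested.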
